A study of Mus musculus with 12 samples.

Results

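Transcript levels were compared in side population (SP) cells of the mouse lung tumour line A2C12 with and without an antibody against EpCAM. The comparison took in 6 of the 12 arrays of the series, namely 3 labelled A2C12 SP cells that received no treatment and 3 labelled A2C12 anti-EpCAM treated SP cells. All 12 arrays came from this 1 cell line on a C57BL/6 background. Treated cells were kept for 48 h in 100 µg/ml of a monoclonal antibody to mouse EpCAM, and the labels give the other group's treatment as none, with no control antibody. Both groups were then stained with the DNA dye Hoechst at 5 µg/ml for 90 min and sorted, with reserpine at 50 µmol/l as the pump inhibitor that marks the SP gate. The remaining 6 arrays hold the sorted non-SP cells of the same 2 treatments and are set beside the SP values where the fractions are compared. Each group has 3 biological replicates. The labels do not say whether these were separate cultures, so p-values measure the spread between these samples.

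EpCAM is an adhesion protein of epithelial cells that lies in the membrane with claudins and tetraspanins. Proteases of the ADAM family and γ-secretase can cut it, and its intracellular end can then join FHL2, β-catenin and the transcription factor LEF1 in the nucleus, where cell cycle genes such as those of MYC and cyclin D1 are among the known targets. SP cells keep little Hoechst dye because membrane pumps, above all ABCG2 and the ABCB1 family, remove it. An antibody can also reach cells through its constant part, which Fc receptors bind.

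No gene passed the test in SP cells. Of 18193 genes tested with limma, 0 were higher and 0 were lower at a Benjamini-Hochberg adjusted p under 0.05 (0% each way), and the smallest adjusted p was 1. Below an unadjusted p of 0.05, 16 genes were higher (0.0879%) and 709 were lower (3.9%) in the treated arrays. With each array centred on its own median over genes, these became 89 higher (0.489%) and 252 lower (1.39%), and 0 passed the adjusted threshold with a lowest adjusted p of 0.9999. Arrays of both groups did not overlap for 79 genes on the higher side (0.434%) and for 1462 on the lower side (8.04%), against 421 (2.31%) and 513 (2.82%) after centring. All gene values below are therefore values with an unadjusted p from limma, and none is a call. A gene's 95% interval extended by a median of 0.48 log2 units to either side, or 1.40-fold, and it lay inside a 2-fold change for 92.3% of genes.

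The arrays themselves differed in scale. The median over genes was 7.17, 6.98 and 7.11 log2 units in the untreated arrays and 7.07, 6.91 and 6.91 in the treated ones. The treated medians were lower by 0.12 on average, but treated replicate 1 lay above untreated replicate 2, and an exact two-sided permutation test gave p = 0.2, where 0.1 is the smallest p that 3 against 3 arrays can give. The median difference of all genes was likewise -0.12, and 21.6% of genes lay above 0 with the deposited values and 50.8% with centred values. SP anti-EpCAM replicate 2 stood apart from the other SP arrays. Its 3′ minus 5′ signal of the actin control probe sets was 1.03 log2 units against 0.18 to 0.73 in the other 5, that of the Gapdh controls was 0.50 against -0.03 to 0.23, and its mean correlation with the other arrays, 0.985, was the lowest of the SP arrays. It was also the only one of the 12 arrays whose best match was not the other fraction with its own number and treatment. The non-SP array of that number and treatment gave 0.89 for actin. Results that rest on SP anti-EpCAM replicate 2 are given with and without it.

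Most of the lower genes lay between 4 and 6 log2 units. Among genes with a mean of 4 to 6 log2 units over the SP arrays, 530 of 5203 (10.2%) were lower at an unadjusted p under 0.05. Of the dimmest genes, under 4 units, 53 of 1810 (2.93%) were lower, with a median difference of -0.06. Among those from 6 to 8 units 119 of 3916 (3.04%) were lower, from 8 to 10 units 7 of 4407 (0.159%) and above 10 units 0 of 2857. The median difference was -0.21 in the class from 4 to 6 and -0.09 in each of the 2 brightest classes. Without SP anti-EpCAM replicate 1 these medians were -0.17, -0.16 and -0.16, and after a further quantile normalisation they were 0.00022, -0.0054 and -0.011, so the classes lay close together in either case. SP anti-EpCAM replicate 1 had the lowest median in the class from 4 to 6, at 4.81 against 4.94 to 5.34 in the other 5 arrays, while its median in the class from 8 to 10 was the highest of all, at 9.08. The 709 lower genes numbered 450 without that array, 391 without SP untreated replicate 1 and 469 without SP untreated replicate 3. The 16 higher genes numbered 146 without SP anti-EpCAM replicate 3, 62 without SP anti-EpCAM replicate 2 and 53 without SP untreated replicate 1.

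**Figure D1:**
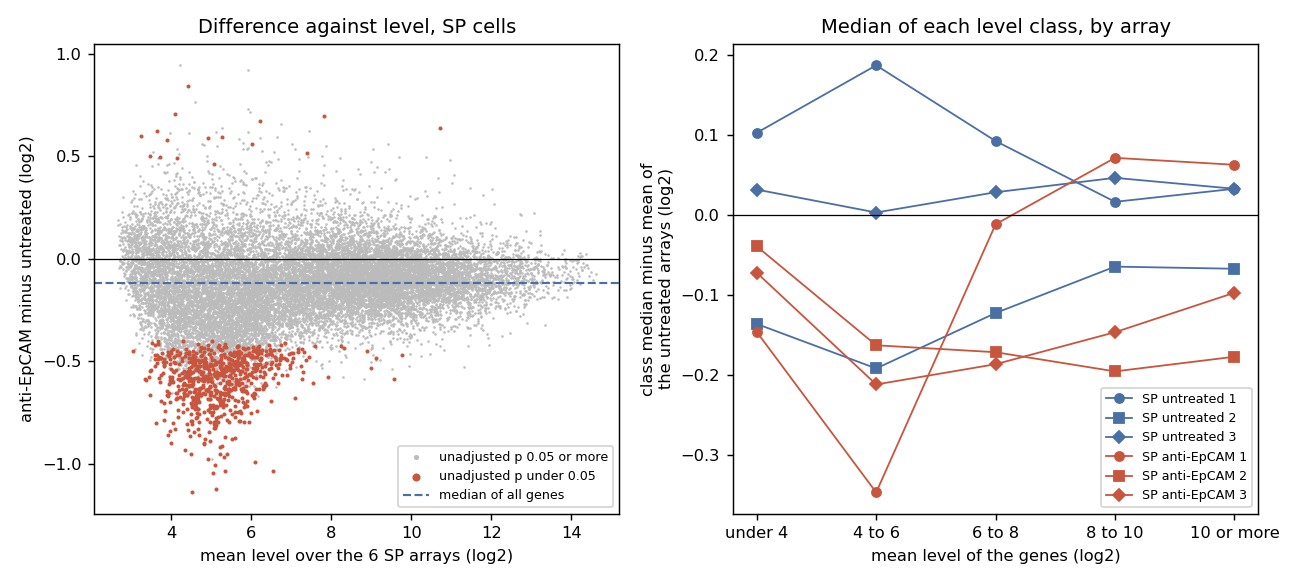
The left panel plots the treated minus untreated difference (log2) of each of 18193 genes against its mean level in the 6 SP arrays (log2), with genes at an unadjusted p under 0.05 in red, the zero line in black and the median of all genes, -0.12, as a dashed line. The right panel plots, for each array, the median of 5 level classes minus the mean of the untreated arrays (log2), where SP anti-EpCAM 1 is lowest in the class from 4 to 6 and highest in the class from 8 to 10.

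The target of the antibody differed little. Epcam was at 8.17, 7.94 and 8.38 log2 units in the untreated arrays and at 7.96, 7.80 and 8.22 in the treated arrays, so the groups overlapped. Its difference was -0.17 ± 0.20 (SE), with a 95% interval from -0.62 to 0.29, and -0.04 with centred arrays. Without SP anti-EpCAM replicate 2 it was -0.07. It turned to 0.03 with arrays centred over all probe sets. The transcript was read from a probe set whose name marks possible signal from related transcripts, and the dimmer probe set of Epcam, at a mean of 4.61, gave -0.28.

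The partners, proteases and targets of EpCAM did not move as 1 group. Of 21 listed genes 19 were measured. They spread from -0.71 to 0.34, with a median of -0.13 against -0.12 for all genes, and 9 exceeded the all-gene median while 10 did not. At an unadjusted p under 0.05, 0 were higher and 2 were lower, Lef1 and Cldn4, where 3.9% of all genes and 10.2% of those from 4 to 6 units, the class of both, were lower. Lef1, the nuclear partner of the EpCAM fragment and of β-catenin, was at 5.38, 5.34 and 5.55 without the antibody and at 4.70, 4.99 and 4.66 with it. All 3 treated arrays lay below all 3 untreated ones. The difference was -0.64 ± 0.19 (SE, unadjusted p = 0.0066 by limma), and -0.52 with centred arrays. A dimmer probe set of Lef1, at a mean of 3.75, gave -0.26.

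The claudin that stood out was Cldn4, a tight junction protein of epithelia. It was at 6.00, 5.61 and 5.57 without the antibody and at 4.44, 5.40 and 5.20 with it, a difference of -0.71 ± 0.26 (SE, unadjusted p = 0.021 by limma). The groups did not overlap with the deposited values, but did after centring, and the low value of treated replicate 1 made much of the gap. Cldn7, which binds EpCAM directly, was at 5.39, 5.79 and 5.78 against 5.20, 5.33 and 5.39, a difference of -0.35 ± 0.19 (SE). Tspan8, a tetraspanin found in complexes with EpCAM, differed by -0.30 in its brightest probe set and by 0.64 in another of similar level, so it has no settled direction. Ccnd1, which encodes cyclin D1, stood at 12.81, 12.44 and 12.78 against 12.71, 12.52 and 12.59. Its difference was -0.07 ± 0.19 (SE), or -0.03 without SP anti-EpCAM replicate 2, and it turned to 0.05 with centred arrays.

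**Figure D2:**
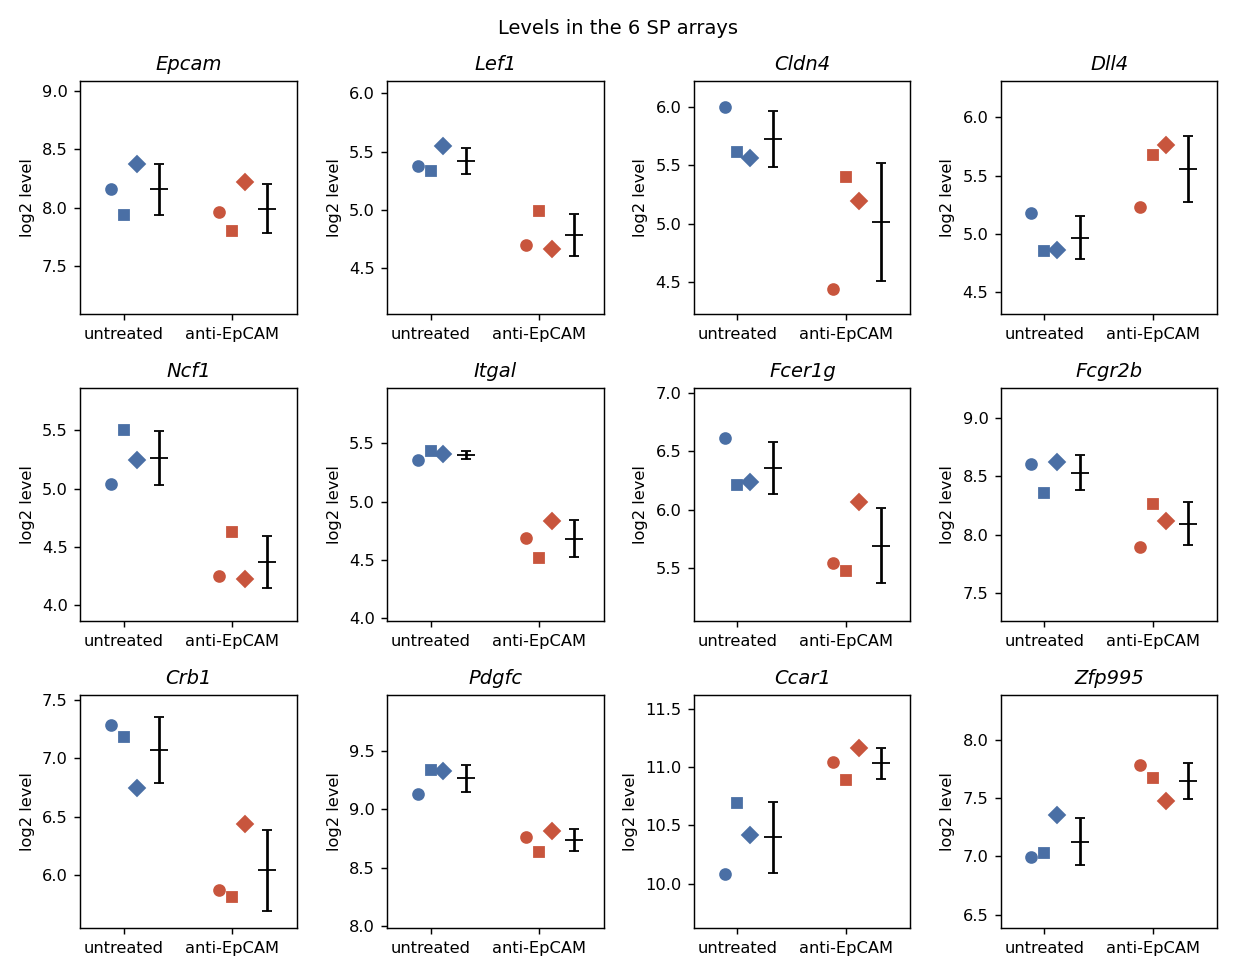
Each panel plots the log2 level of 1 gene in the 3 untreated (blue) and 3 anti-EpCAM (red) SP arrays, with circles for replicate 1, squares for replicate 2, diamonds for replicate 3 and the group mean ± SD beside them, over a span of 2 log2 units. Epcam overlaps between the groups, whereas the treated arrays of Lef1, Ncf1, Itgal and Crb1 all lie below the untreated ones and those of Ccar1 and Zfp995 above.

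In the Wnt pathway the difference stayed with Lef1. Of 26 measured genes 1 was lower and 0 were higher at an unadjusted p under 0.05, a share of lower genes near the 3.9% of all genes. The list median was -0.10, or -0.05 without SP anti-EpCAM replicate 2, and 15 of 26 exceeded the all-gene median. Lrp5, a coreceptor for Wnt ligands, was at 5.53, 5.96 and 5.81 without the antibody and at 5.74, 4.47 and 5.22 with it. The groups overlapped, and the low value was that of SP anti-EpCAM replicate 2. Without it the difference of Lrp5 was -0.29, against -0.62 with all arrays. Nkd2, a feedback inhibitor of the pathway, differed by -0.32 ± 0.18 (SE), and other probe sets of it gave -0.08, 0.23 and -0.39.

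Notch genes gave 1 ligand on the higher side. Of 21 measured genes, Dll4 alone had an unadjusted p under 0.05, where 0.0879% of all genes were higher. The list median was -0.11, or -0.06 without SP anti-EpCAM replicate 2. Dll4, a membrane ligand for Notch receptors, was at 5.18, 4.86 and 4.87 without the antibody and at 5.23, 5.68 and 5.77 with it. The groups did not overlap, although treated replicate 1 lay close to untreated replicate 1. The difference was 0.59 ± 0.21 (SE, unadjusted p = 0.018 by limma) and 0.71 with centred arrays. Another probe set of Dll4 at nearly the same level gave -0.27, so the gene's direction was not settled. The target gene Heyl, a transcriptional repressor under Notch, differed by -0.51 ± 0.26 (SE), and by -0.52 and -0.12 in other, dimmer probe sets. Its treated arrays were at 5.11, 5.94 and 5.28 and its untreated arrays at 6.31, 5.63 and 5.92, which overlap through replicate 2.

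Genes of Fc receptors and phagocytes had the lowest median among the pathway lists with the deposited values. Of 26 listed genes 23 were measured, their median difference was -0.24, or -0.11 with centred arrays, and 14 of 23 lay under the all-gene median. At an unadjusted p under 0.05, 4 were lower and 0 higher, and 7 were lower without overlap between groups. The share of lower genes among all genes was 3.9% by the p and 8.04% by the lack of overlap. The list is dim, with a median level of 5.9, and 10.2% of genes from 4 to 6 units were lower by the same p. With centred arrays 3 were lower and 1 was higher at that p, beside 1.39% and 0.489% of all genes. On that scale 5 were lower without overlap, beside 2.82% of all genes. The direction within the list was mixed: Cybb, the membrane subunit of the oxidase, differed by 0.76 and was chosen after its value was seen.

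The 4 lower genes of that list act in different ways. Ncf1, a cytosolic subunit of the phagocyte NADPH oxidase, was at 5.04, 5.50 and 5.25 without the antibody and at 4.25, 4.63 and 4.23 with it. Its difference was -0.90 ± 0.21 (SE, unadjusted p = 0.0013 by limma), and 2 dimmer probe sets of the gene gave 0.00165 and -0.40. Itgal, the α chain of the leukocyte integrin LFA-1, was at 5.36, 5.43 and 5.41 against 4.69, 4.52 and 4.84. The gap of -0.72 ± 0.18 (SE) was several times the spread within the untreated arrays, but a dimmer probe set gave only -0.17.

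The other two are parts of the antibody receptors. Fcer1g, the signalling chain shared by activating Fc receptors, was at 6.62, 6.21 and 6.24 without the antibody and at 5.54, 5.47 and 6.06 with it. The difference was -0.66 ± 0.22 (SE, unadjusted p = 0.013 by limma), and the groups overlapped after centring. Fcgr2b, the inhibitory receptor for IgG, was at 8.61, 8.36 and 8.62 against 7.90, 8.26 and 8.12, with a difference of -0.44 ± 0.19 (SE, unadjusted p = 0.046 by limma). Its treated arrays lay below all untreated arrays on both scales. The 4 dimmer probe sets of Fcgr2b gave -0.07, -0.47, -0.02 and 0.07, from the brightest to the dimmest.

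Markers of other cell types were looked at beside these genes. The 10 macrophage markers had a median difference of -0.11, with 0 at an unadjusted p under 0.05 in either direction. Without SP anti-EpCAM replicate 2 the median was -0.23, and 4 of 10 exceeded the all-gene median in place of 6. Their centred mean ran from -1.37 to -1.11 in untreated and from -1.38 to -1.15 in treated arrays, so the groups overlapped. Ptprc, which encodes the pan-leukocyte protein CD45, lay between 3.24 and 3.58 in all 6 arrays, near the bottom of the scale. Itgam lay between 3.49 and 4.37 and Adgre1 between 4.23 and 5.17, whereas Csf1r lay between 9.26 and 10.24 and Cd14 between 8.58 and 9.39. The 7 measured lymphocyte markers had a median difference of -0.08 and the 6 endothelial markers one of -0.18. The part of such cells in the phagocyte genes was not tested.

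Complement genes held 1 lower gene of 14 measured, where 3.9% of all genes and 10.2% of the class of that gene were lower, and the list median was -0.15. This was C5ar1, the receptor for the complement fragment C5a, at 5.35, 5.25 and 5.72 without the antibody and at 4.35, 5.01 and 4.79 with it. All treated arrays were lower, and the difference was -0.72 ± 0.23 (SE, unadjusted p = 0.0094 by limma). C1qb, a chain of the complement starter C1q, differed by -0.54 ± 0.25 (SE). Its groups overlapped through treated replicate 3, and other probe sets of C1qb gave 0.06 and -0.15.

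On both scales 68 genes (0.374%) were higher and 481 (2.64%) lower without overlap. Among genes with a mean of at least 6 log2 units, 14 of 11180 (0.125%) were higher and 131 (1.17%) were lower in this way. The genes named here are the 12 lowest and 12 highest of these by the moderated t of limma, leaving out clone and predicted gene names. Crb1, a polarity protein of the Crumbs family, had the lowest value, at 7.29, 7.19 and 6.75 without the antibody and at 5.87, 5.81 and 6.44 with it. Its difference was -1.03 ± 0.24 (SE, unadjusted p = 0.0012 by limma), and -0.91 after centring. Treated replicate 3 lay closest to the untreated arrays. A dimmer probe set of Crb1, at 3.69, gave -0.32.

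Enzymes and secreted proteins were among the other lower genes. Aldh4a1, a mitochondrial enzyme of proline breakdown, was at 7.43, 7.23 and 7.62 against 6.62, 6.63 and 6.99, a difference of -0.68 ± 0.20 (SE). Mmp23, a membrane-bound metalloprotease, was at 6.67, 6.58 and 6.59 against 5.84, 6.11 and 5.99. Its difference of -0.63 ± 0.18 (SE) came from tight groups, but another probe set gave -0.12. Gkn3, a secreted gastrokine, differed by -0.74 and by -0.64 in its other, dimmer probe set. Amh, the anti-Müllerian hormone, differed by -0.61 and Klk1b21, a kallikrein protease, by -0.51. Cldn22, a claudin, differed by -0.69.

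Pdgfc was the brightest of the 12 lower genes, and both of its probe sets gave a like difference. It encodes a ligand for the platelet-derived growth factor receptor, and was at 9.13, 9.34 and 9.33 without the antibody and at 8.76, 8.63 and 8.81 with it. The groups did not overlap on either scale. The difference was -0.53 ± 0.18 (SE, unadjusted p = 0.014 by limma) and -0.41 with centred arrays, and a second bright probe set, at a mean of 8.68, gave -0.48. Epsti1, which is induced by interferon and by contact of epithelium with stroma, differed by -0.66 in its brightest probe set and by -0.63, -0.14 and -0.01 in 3 dimmer ones. The neuronal genes Apba1 and Myt1l, an adaptor of the amyloid precursor protein and a zinc finger repressor, differed by -0.62 and -0.65. Other probe sets gave -0.04 and -0.39 for Apba1 and -0.43, 0.37, -0.01 and 0.0076 for Myt1l. Armc2, a gene of sperm flagella, differed by -0.56.

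On the higher side Ccar1 led. It encodes a coactivator that regulates cell division and apoptosis, and was at 10.08, 10.69 and 10.42 without the antibody and at 11.04, 10.89 and 11.16 with it. The difference was 0.64 ± 0.21 (SE, unadjusted p = 0.012 by limma), with untreated replicate 1 as the lowest array. A probe set of nearly equal brightness, at a mean of 10.5, gave -0.08, so the higher level was found in 1 of 2 bright probe sets. Zfp995, a zinc finger gene, was at 6.99, 7.03 and 7.36 against 7.78, 7.67 and 7.48, a difference of 0.52 ± 0.20 (SE), and 0.13 in another probe set. Klf12, a transcriptional repressor, was at 5.83, 5.70 and 5.71 against 6.63, 5.95 and 6.32, a difference of 0.56 ± 0.21 (SE). Dimmer probe sets of Klf12 gave -0.17, -0.10, 0.01 and 0.13. Sdcbp2, an adaptor of the syntenin family, and Nanos1, an RNA-binding repressor of translation, differed by 0.38 and 0.33. A dimmer probe set of Nanos1, at a mean of 4.97, gave -0.04. The other 7 genes chosen by this rule ranged from 0.15 to 0.28 and had unadjusted p-values of 0.215 and above.

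Without a filter on level, the lowest genes by moderated t were Csn2, the clone gene 4930577N17Rik, Nxf7, Grin3a and Crb1. The clone gene differed by -0.90, and clone names were left out of the choice of genes described. Csn2, the milk protein β-casein, was at 4.42, 4.67 and 4.44 without the antibody and at 3.66, 3.68 and 3.70 with it, a difference of -0.83 ± 0.18 (SE). Another probe set of Csn2 gave 0.07. Nxf7, of the family of RNA export factors, was at 4.49, 4.34 and 4.36 against 3.37, 3.69 and 3.61. Grin3a, a subunit of the NMDA glutamate receptor, was at 5.33, 4.87 and 5.15 against 4.26, 4.27 and 4.24, while 2 dimmer probe sets of Grin3a gave -0.07 and -0.17. Csn2, Nxf7 and Grin3a lay without overlap, with differences of -0.83 to -0.86. Csn2 and Grin3a fall in the class from 4 to 6 units, and Nxf7, at a mean of 3.98, just under it.

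The highest gene by moderated t was Nnat, which is imprinted and encodes the small membrane protein neuronatin. Nnat was at 3.84, 3.63 and 3.79 without the antibody and at 4.36, 4.30 and 4.72 with it, a difference of 0.71 ± 0.20 (SE, unadjusted p = 0.0042 by limma). It was the only gene with an unadjusted p under 0.05 and a higher level under all 13 settings that kept the same genes, namely the scalings, the other fits and each SP array left out, and 110 genes were lower under all of them. Nnat, at a mean of 4.11, was not tested with the filter on level. Slc13a3, a carrier of dicarboxylates, differed by 0.59 in its brightest probe set and by -0.45, -0.42 and -0.31 in the other 3.

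A second probe set of the same gene served as a check of single genes. Of 4807 genes with 2 probe sets of at least 6 log2 units, 59.2% had differences of the same sign with centred arrays. With the deposited values, the second probe set had the same sign and an unadjusted p under 0.05 in 48 of the 4807. Of 19 such genes that were lower at that p with the deposited values, 11 had the same sign in the second probe set with centred arrays. Counted with the deposited values, the second probe set had the same sign and passed that p in 2 of the 19. Of 3 higher genes 2 had the same sign and 0 passed. In 2 genes chosen after their values were seen, both probe sets lay without overlap on both scales. Hexim2, an inhibitor of the transcription elongation factor P-TEFb, differed by -0.53 and -0.44. Zap70, a tyrosine kinase of T cell receptor signalling, differed by -0.33 and -0.69.

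The lists of cell division genes differed between single arrays. The mean of 23 mitosis genes (G2/M), with arrays centred, was 2.66, 3.12 and 3.52 in the untreated and 3.37, 2.29 and 3.55 in the treated arrays. SP anti-EpCAM replicate 2 was the lowest of the 6. The list median was -0.17 with all arrays, where 8 of 23 genes exceeded the all-gene median, and 0.28 without that array, where 23 of 23 did. Ccna2, which encodes cyclin A2, was at 9.93, 10.40 and 11.10 against 10.44, 9.56 and 10.62, and overlapped widely. The 25 replication genes of G1/S had a median of -0.10 with all arrays and of 0.07 without SP anti-EpCAM replicate 2.

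Inflammatory genes under NF-kB split the arrays in another way. Their centred mean was 2.33, 1.56 and 1.36 in the untreated and 2.21, 2.27 and 1.28 in the treated arrays, so untreated replicate 1 sat with treated replicates 1 and 2. Of 23 genes, 19 exceeded the all-gene median and the list median was 0.05, but without SP anti-EpCAM replicate 2 it was -0.15 and 10 lay above. Ccl20, a chemokine, was at 8.10, 5.81 and 7.47 against 8.70, 7.91 and 6.64. Its difference of 0.62 ± 0.58 (SE) was within the spread of the groups. Tnf, the cytokine itself, was at 6.58, 6.00 and 6.40 against 5.85, 6.15 and 5.78, a difference of -0.40 ± 0.22 (SE).

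**Figure D3:**
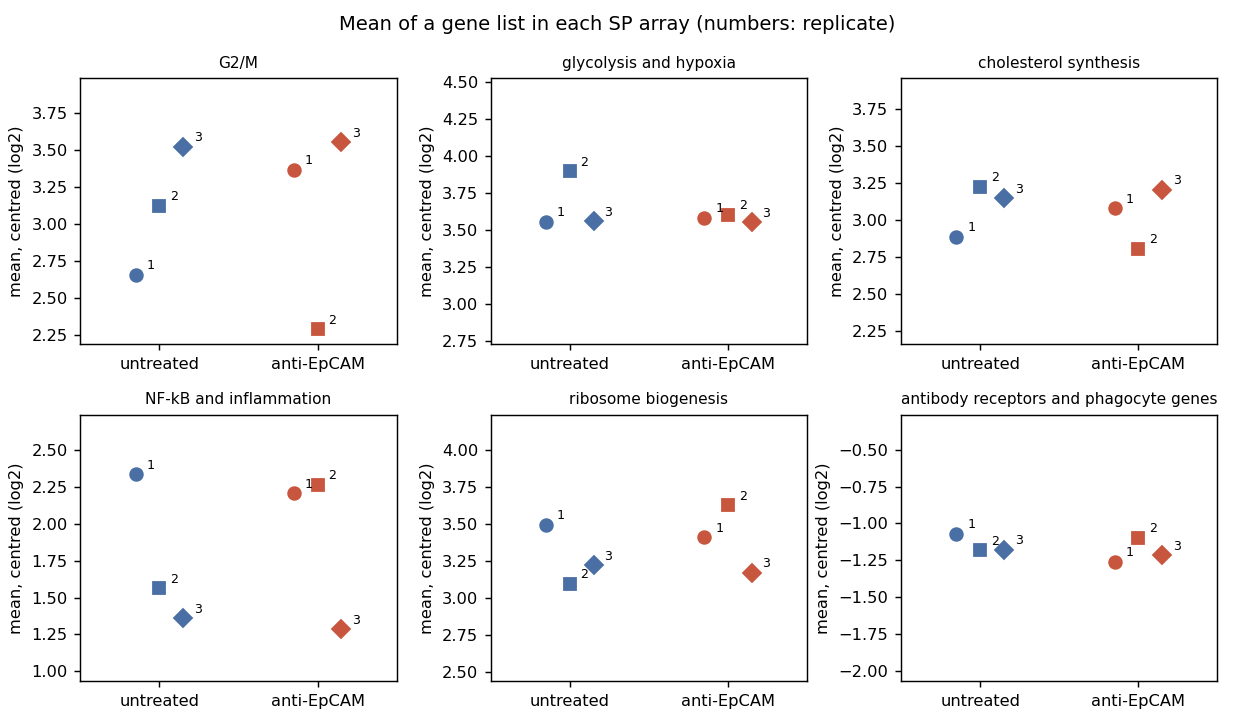
Each panel plots the mean log2 level of 1 gene list in each of the 6 SP arrays after centring each array on its median, with the replicate number beside the point, untreated in blue and anti-EpCAM in red. SP anti-EpCAM 2 is lowest for G2/M, SP untreated 2 is highest for glycolysis and hypoxia, and the groups overlap for all 6 lists.

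Most members exceeded the all-gene median in several lists. Spliceosome genes did so for 18 of 22 members, lysosome and autophagy for 18 of 23 and apoptosis machinery for 17 of 21. In 4 further lists, ribosome biogenesis gave 19 of 20 with a median of 0.01 and direct output of the MAP kinase ERK 18 of 20 with a median of 0.00. Partners of MYC gave 11 of 12 and the amino acid response 17 of 20. Without SP anti-EpCAM replicate 2 the counts of these 4 lists were 12 of 20, 17 of 20, 8 of 12 and 9 of 20. The lists are bright, and with centred arrays genes from 8 to 10 units and those above 10 each had a median of 0.03. On that scale the medians of these 4 lists were 0.13, 0.13, 0.12 and 0.06, in the order given. Without SP anti-EpCAM replicate 2 they were 0.05, 0.19, 0.02 and -0.03. No gene of these 4 lists had an unadjusted p under 0.05 with the deposited values. Phlda1, an early gene of growth signalling, had the largest value of the ERK list at 0.34 ± 0.26 (SE), with 11.41, 11.24 and 11.26 in untreated and 11.87, 11.05 and 12.02 in treated arrays. Without SP anti-EpCAM replicate 2, its lowest treated array, the difference was 0.64 (unadjusted p = 0.0081 by limma). Nop58, a core protein of small nucleolar particles, differed by 0.31 ± 0.26 (SE).

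Stress genes under NRF2 and the aryl hydrocarbon receptor exceeded the all-gene median for 16 of 20 members, and for 15 without SP anti-EpCAM replicate 2. Cyp1a1, the oxidase that is the usual readout of that receptor, was at 4.76, 4.56 and 5.11 without the antibody and at 6.19, 5.45 and 4.65 with it. Its difference was 0.62 ± 0.34 (SE), with treated replicate 3 among the untreated arrays. Gclm, a subunit of the enzyme that starts glutathione synthesis, differed by 0.28 ± 0.26 (SE), and by 0.43 without SP anti-EpCAM replicate 2. Another probe set of Gclm, at a mean of 8.23, gave -0.08. The targets of p53 gave 14 of 17 above the all-gene median with all arrays and 12 without SP anti-EpCAM replicate 2, and 0 of 17 passed an unadjusted p of 0.05.

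**Figure D4:**
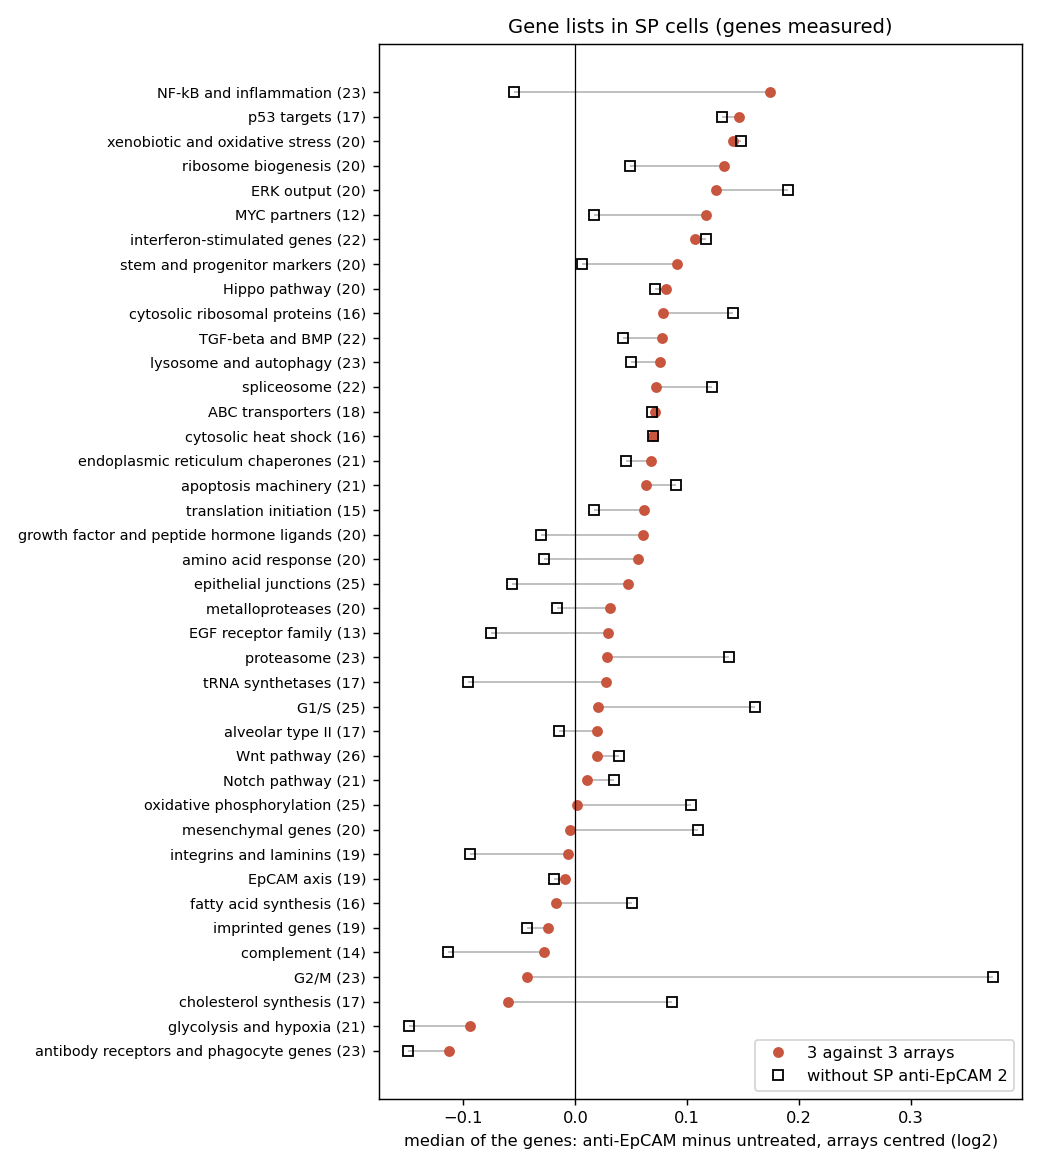
The plot gives the median treated minus untreated difference (log2, arrays centred) of each gene list, with the number of genes measured in brackets, for 3 against 3 arrays (red circles) and without SP anti-EpCAM 2 (open squares). Phagocyte genes and glycolysis with hypoxia are lowest either way, while G2/M goes from below 0 to the highest value without that array.

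Genes of glycolysis and of the response to low oxygen had a median below that of all genes, with overlap between the groups. Known targets of the factor HIF1 are among them, and HIF1 binds DNA at short cores, of which ACGTG is 1 form. Of 24 listed genes 21 were measured, the median difference was -0.22, and 16 lay under the all-gene median. Without SP anti-EpCAM replicate 2 the median was -0.24, and 8 in place of 5 exceeded the all-gene median. The median was -0.13 after a further quantile normalisation, and -0.02 with arrays centred over all probe sets, where all genes had 0.076. The centred mean was 3.56, 3.90 and 3.56 in untreated and 3.58, 3.60 and 3.55 in treated arrays, so untreated replicate 2 alone stood high and the other 5 arrays lay close together. At an unadjusted p under 0.05, 1 gene was lower, again near the 3.9% of all genes. It was Car9, a carbonic anhydrase at the cell surface. It was at 5.68, 5.34 and 5.80 without the antibody and at 5.01, 5.16 and 4.87 with it, with no overlap, a difference of -0.59 ± 0.20 (SE, unadjusted p = 0.013 by limma) and -0.47 with centred arrays.

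The other 3 genes named in this list were bright. P4ha1, a prolyl hydroxylase that matures collagen, was at 10.71, 11.02 and 11.10 against 10.61, 10.74 and 10.51, a difference of -0.32 ± 0.19 (SE). Pfkp, a phosphofructokinase, was at 10.72, 11.04 and 10.78 against 10.36, 10.66 and 10.56, also a difference of -0.32. Ankrd37, an ankyrin repeat gene under HIF1, was at 9.96, 10.51 and 9.87 against 9.84, 9.21 and 10.02, and its gap of -0.43 ± 0.26 (SE) came from the high untreated and the low treated replicate 2, since without the latter it was -0.19.

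Promoters are shown because known HIF1 targets are in the list, although the list was made by pathway and not by 1 factor. Only the ACGTG form of the HIF1 core was looked for. The core ACGTG, or CACGT on the other strand, was searched in the 250 bases before the start of each gene in RefSeq's promoters for GRCm38.p6. It occurred in 11 of 20 promoters found for measured genes of the list (55%) and in 4477 of 27025 promoters of all genes (16.6%). A match is a description of the letters and not a measured site. The 3 named genes with a match are given 5′ to 3′ on the gene's strand, with the core in capitals; Car9 lies on the plus strand at chr4:43506776-43507025, Ankrd37 on the minus strand at chr8:45999851-46000100 and P4ha1 on the plus strand at chr10:59323046-59323295.
Car9: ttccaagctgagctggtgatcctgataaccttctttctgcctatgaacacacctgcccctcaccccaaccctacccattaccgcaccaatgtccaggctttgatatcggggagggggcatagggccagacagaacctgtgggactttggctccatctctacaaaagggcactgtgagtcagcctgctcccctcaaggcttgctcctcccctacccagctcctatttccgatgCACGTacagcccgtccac
Ankrd37: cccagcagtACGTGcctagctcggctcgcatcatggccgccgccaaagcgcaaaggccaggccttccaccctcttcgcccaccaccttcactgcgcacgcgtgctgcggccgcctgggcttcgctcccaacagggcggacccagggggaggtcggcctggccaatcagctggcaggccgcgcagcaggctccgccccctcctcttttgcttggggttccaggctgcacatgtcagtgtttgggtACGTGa
P4ha1: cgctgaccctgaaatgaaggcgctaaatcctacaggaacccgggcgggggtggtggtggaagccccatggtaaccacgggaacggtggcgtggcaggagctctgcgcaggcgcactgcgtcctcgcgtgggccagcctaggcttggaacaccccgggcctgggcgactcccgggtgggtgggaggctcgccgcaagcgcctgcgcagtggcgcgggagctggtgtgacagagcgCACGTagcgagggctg
Car9 and P4ha1 hold 1 match to this form each, starting 18 and 16 bases before the gene's start. Ankrd37 holds 2, starting 241 and 6 bases before it. Of the 3, Car9 was lower in every treated array, whereas P4ha1 and Ankrd37 overlapped between the groups.

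Among the pumps, the genes behind the SP gate did not separate the groups. Abcg2, the main Hoechst pump, was at 8.32, 8.61 and 8.85 without the antibody and at 8.35, 8.24 and 8.21 with it. Untreated replicate 1 lay among the treated arrays, and the difference was -0.33 ± 0.20 (SE), with a 95% interval from -0.77 to 0.11. Abcb1a was at 8.03, 7.95 and 7.28 against 7.55, 7.97 and 6.47, a difference of -0.42 ± 0.36 (SE) that rested on treated replicate 3, since without it the value was 0.0045, and it was -0.74 without SP anti-EpCAM replicate 2. Abcb1b was at 9.48, 9.14 and 9.28 against 10.03, 9.19 and 8.66, with a wider spread in treated cells and a difference of -0.01 ± 0.31 (SE), which turned to 0.12 with centred arrays. Of 18 transporters 2 were lower at an unadjusted p under 0.05, beside 3.9% of all genes. They were Abca2 at -0.42 and Abca5 at -0.41, which carry lipids inside cells. Their treated arrays lay below all untreated ones on both scales, but a dimmer probe set of Abca5 gave 0.13.

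Stem and progenitor markers gave 0 of 20 genes at an unadjusted p under 0.05 and a median of -0.03, or -0.09 without SP anti-EpCAM replicate 2. Prom1, which encodes CD133, was at 5.36, 4.65 and 5.13 without the antibody and at 4.21, 4.38 and 5.13 with it. Its groups overlapped, and its difference was -0.47 ± 0.28 (SE). Lgr6, a receptor for R-spondins, differed by -0.49 ± 0.26 (SE) and Itgb1, the β1 integrin chain, by -0.34 ± 0.19 (SE). Another probe set of Lgr6 gave 0.10, and those of Itgb1 gave -0.28, -0.34, 0.29, -0.11 and -0.06. Ligands of the EGF receptor family held 1 lower gene, Epgn, which encodes epigen, at 5.27, 4.91 and 4.91 against 3.86, 4.54 and 4.36. Its difference was -0.77 ± 0.23 (SE, unadjusted p = 0.0060 by limma). In the probe sets used, 0 of the other 12 measured genes of that family passed the same p. A dimmer probe set of the receptor gene Erbb3, at a mean of 5.33, gave -0.88 (unadjusted p = 0.0027 by limma). Epgn lies in the class from 4 to 6 units, where 10.2% were lower.

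The line's epithelial label was checked against its markers. Krt8 lay between 8.49 and 8.94, Krt19 between 11.40 and 12.42 and Epcam between 7.80 and 8.38, whereas Cdh1 lay between 5.65 and 7.03 and Esrp1, a splicing factor of epithelia, between 3.77 and 4.24. The collagen genes Col1a1, Col1a2 and Col3a1, which mark fibroblasts, lay between 10.79 and 12.98. The 7 measured fibroblast markers, with these among them, had a median level of 9.57, and the dimmest had a mean of 4.23. Among surfactant genes of alveolar type II cells, Sftpc lay between 5.03 and 6.14. Levels of different genes come from different probe sets and are not ranked here. The deposited values hold no detection call, so absence cannot be read from them. With the antibody, 1 of 25 genes of epithelial junctions was lower at an unadjusted p under 0.05, near the 3.9% of all genes, and 0 were higher, with a median of -0.08, or -0.15 without SP anti-EpCAM replicate 2. Of 20 mesenchymal genes 0 passed that p. Their median was -0.13 and turned to 0.02 without that array, where 15 of 20 exceeded the all-gene median. Cdh1 was at 6.14, 5.65 and 6.97 against 7.01, 7.03 and 6.14, with a spread within each group larger than its difference of 0.47 ± 0.34 (SE).

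Whether the antibody acted alike in both fractions was tested as a difference of differences over all 12 arrays. No gene passed, with a lowest adjusted p of 1 by limma, and 43 genes (0.236%) had an unadjusted p under 0.05. The SP and non-SP arrays of 1 number and treatment moved together, with correlations of their deviations from 0.55 to 0.84. With number and treatment as a block the unadjusted count was 1002, or 5.51% of genes. Of these, 255 had a higher and 747 a lower difference in SP than in non-SP cells. None passed the adjusted threshold, at a lowest adjusted p of 0.767 by limma. In non-SP cells the median difference of all genes was -0.10, near that of SP cells, with 79 genes higher (0.434%) and 408 lower (2.24%) below an unadjusted p of 0.05. For the difference between fractions the 95% interval extended by a median of 0.65 log2 units to either side, and 0.38 with the block.

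Several genes that stood out in SP cells had like values in non-SP cells. Nnat differed by 0.69 there against 0.71 in SP cells, Klf12 by 0.56 in both, Epsti1 by -0.62 against -0.66, Pdgfc by -0.47 against -0.53, Crb1 by -0.83 against -1.03 and Lef1 by -0.50 against -0.64. Their tests of the difference gave unadjusted p-values of 0.546 and above by limma, and of 0.389 and above with number and treatment as a block. For Ncf1 the values were -0.73 in non-SP and -0.90 in SP cells. Some genes had a smaller value in non-SP cells. Gkn3 differed by -0.10 there against -0.74, Aldh4a1 by -0.29 against -0.68 and Grin3a by -0.40 against -0.86. Their unadjusted p-values by limma were 0.116, 0.127 and 0.082, and 0.035, 0.032 and 0.0049 with the block. The SP and non-SP arrays may share cultures, so these values are no independent support.

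Other genes had opposite signs in the fractions. Fcgr2b differed by -0.44 in SP and by 0.22 in non-SP cells. The unadjusted p for the difference by limma was 0.038, and 0.011 with number and treatment as a block. Zfp995 differed by 0.52 in SP and by -0.38 in non-SP cells, at 0.026 and 0.017. Ccar1 differed by 0.64 and -0.10, at 0.077 and 0.039. Tnf differed by -0.40 and 0.25, at 0.075 and 0.0030. Aqp11, a water channel, differed by -0.40 and 0.41, at 0.025 and 0.015, and Crebl2, a relative of the CREB factors, by 0.32 and -0.39, at 0.020 in both fits. A dimmer probe set of Crebl2, at a mean of 4.15, gave -0.65 in SP cells. Apba1 was negative in both fractions, by -0.62 and -0.10, at 0.053 and 0.0097. None passed after adjustment, where every adjusted p of these genes was 1 without and 0.767 with the block.

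**Figure D5:**
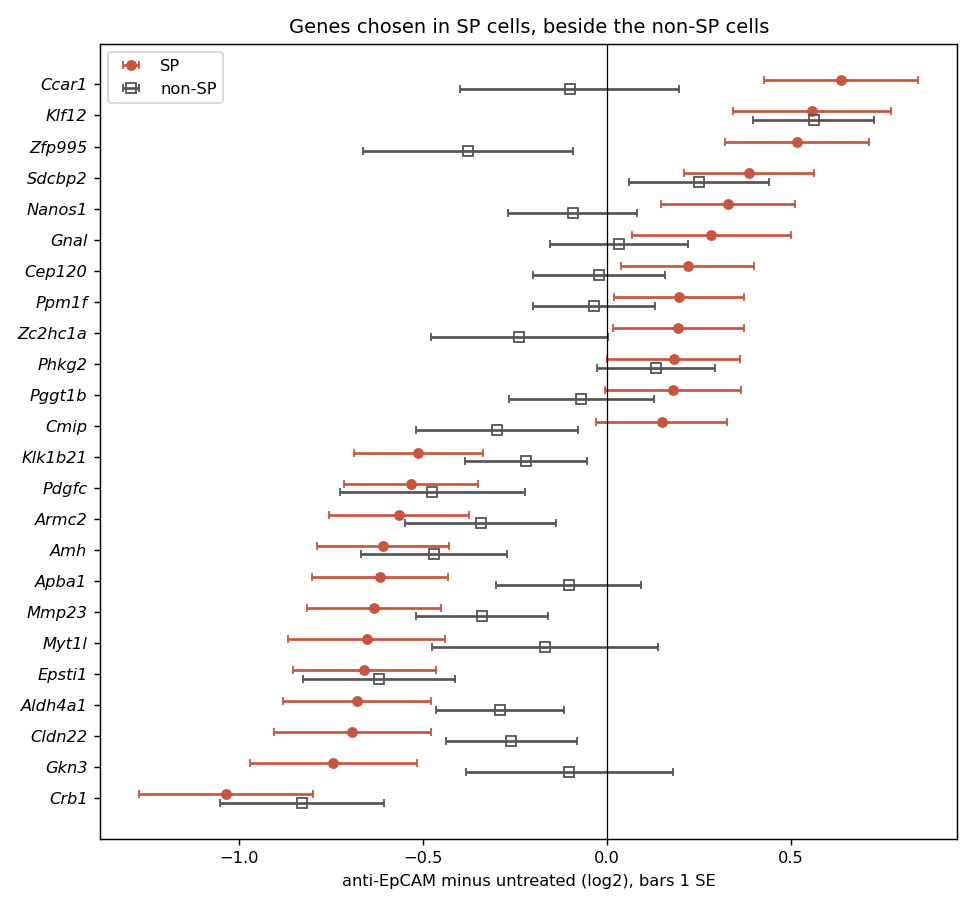
The plot gives the treated minus untreated difference (log2) with bars of 1 SE for the 12 higher and 12 lower genes chosen in SP cells (red circles) and the same genes in non-SP cells (open squares). The genes were chosen on the SP values, so the SP points stand away from 0 by choice, and the non-SP points of Crb1, Epsti1, Pdgfc and Klf12 lie close to them.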

How the data were processed

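The authors summarised the probe signals by RMA, per the submitters' processing notes, and deposited log2 values. Their software and any later scaling were not given in the sources used here. Per the labels' protocols 200 ng of total RNA were amplified for Affymetrix mouse genome arrays, and only the processed table was used.

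Of 45101 probe sets 34958 had 1 gene symbol in the platform annotation of 2016, 932 had several and 9211 none. The 64 control probe sets were kept apart. Of a gene's probe sets that with the highest mean over 12 arrays was used, which gave 18193 genes, 1568 of them on x_at or s_at probe sets. No filter on level was applied in the main test.

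The 6 SP arrays were fitted without a block by lmFit and eBayes (no trend) of limma 3.58.1 under R 4.3.3. Tests were two-sided at a threshold of 0.05 after Benjamini-Hochberg adjustment over all genes. The spread was pooled from 4 residual and 6.61 prior degrees of freedom. The difference between fractions used 4 group means over 12 arrays. The procedure was checked on simulated data. Replicate numbers did not pair treated with untreated SP arrays (correlations of deviations -0.06, -0.25 and -0.01), while SP and non-SP arrays of 1 number and treatment correlated at 0.55 to 0.84. That link comes from the data, and the labels do not say what these arrays share. The number of arrays limits the precision.

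Named are the 12 highest and 12 lowest genes by moderated t among those with a mean of at least 6 and no overlap on both scales, the 4 highest and lowest without a filter (clone and predicted gene names left out of both), in each of 41 lists up to 4 genes of smallest p (769 of 837 listed genes were measured), the 5 highest and lowest in the difference between fractions, and a fixed set of 14 genes of which 12 were measured. Markers are named beside them, and other exceptions are marked. Genes and lists were chosen with earlier results of these data known. Alternatives were centring, quantile normalisation, all 12 arrays, a replicate block, a level filter, other probe set rules, another variance model and leaving out each array. Promoter letters are RefSeq's. Figures used Python 3.11.15 and matplotlib 3.10.9.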

Additional observations from a re-analysis of the deposited data

How the results depend on the processing

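The count of genes past the adjusted threshold was 0 in both directions and for the difference between fractions under every alternative run, with a lowest adjusted p of 0.776 for the treatment in SP cells. Unadjusted counts moved with the scaling. Centring over genes gave 89 higher and 252 lower genes, centring over all probe sets, added after seeing the data, 194 and 145, and a further quantile normalisation 156 and 175, against 16 and 709. Genes without overlap numbered 421 and 513, 871 and 348, and 460 and 491 in the same order, against 79 and 1462. The median change of all genes was then 0.0030, 0.076 and -0.0047, against -0.12. Of the 725 genes with an unadjusted p under 0.05, 268 were shared with the first of these settings, 161 with the second and 190 with the third. A mean level of at least 5 left 8 higher and 404 lower genes, and 25 higher genes without overlap. Testing every probe set on its own gave 72 and 1298 genes, and 234 and 2897 without overlap.

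The replicate block across treated and untreated SP arrays gave 19 higher and 499 lower genes at an unadjusted p, and ended no call since there was none. For the difference between fractions, the block of number and treatment gave 1002 genes (5.51%). Centred arrays gave 83 and a mean level of at least 5 gave 27, against 43. Leaving out 1 array gave 13 to 146 higher and 391 to 1031 lower genes, 158 to 711 and 2251 to 3773 without overlap, where fewer arrays overlap less by construction, and 14 to 464 for the difference between fractions.

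Directions turned for few named genes. Epcam stood at 0.029 with arrays centred over all probe sets. Ccnd1 stood at 0.051 and 0.12 with the 2 ways of centring and at 0.059 with the mean of its probe sets, and Abcb1b at 0.12 and 0.19, at 0.088 after quantile normalisation and at 0.045 with the mean of its probe sets. With that mean Tspan8 stood at 0.016, Slc13a3 at -0.15 and Crebl2 at -0.16. Without x_at and s_at probe sets Slc13a3 stood at -0.45 and Csn2 at 0.070. Without single arrays Ccna2 ranged from -0.55 to 0.051, Ccl20 from -0.034 to 1.18, Abcb1a from -0.74 to 0.0045 and Abcb1b from -0.37 to 0.31. The cause of these changes was not tested beyond the construction of each setting.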

Other observations

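Secreted growth factors held 1 lower gene of 20 at an unadjusted p under 0.05 in SP cells, near the 3.9% of all genes, and their median difference was -0.06. Hgf, which encodes the ligand of the receptor MET, was at 7.59, 7.65 and 7.47 log2 units in untreated and at 6.80, 7.55 and 6.70 in treated arrays, a difference of -0.55 ± 0.24 (SE). Treated replicate 2 lay among the untreated arrays, and 2 other probe sets of Hgf gave -0.13 and -0.15. Fgf18 differed by -0.49 ± 0.23 (SE), with treated arrays at 5.07, 5.65 and 5.61 below untreated arrays at 6.15, 5.68 and 5.98.

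Interferon-stimulated genes had 0 of 22 members at an unadjusted p under 0.05 and a median of -0.02. Rsad2, an antiviral enzyme, was at 6.58, 5.87 and 6.61 against 6.06, 5.71 and 5.83, while dimmer probe sets of it gave 0.09 and -0.06. Stat2, a transcription factor of the interferon response, differed by -0.39 ± 0.21 (SE), and by -0.57 in another probe set. Of 19 measured imprinted genes, with Nnat among them, 5 lay above 0 and 7 above the median of all genes. Their median difference was -0.15. Grb10, an adaptor that restrains insulin signalling, differed by -0.53 ± 0.25 (SE) in SP and by 0.14 in non-SP cells. The difference between fractions had an unadjusted p of 0.057 by limma, and of 0.0045 with number and treatment as a block.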
